A study of Mus musculus with 12 samples.

Results

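The 26 mRNAs described here encode the enzymes that make cholesterol and the proteins that set how much of it a cell makes and takes up, many of them known targets of the transcription factor SREBP2. They were taken by name from the 27179 gene IDs counted in each library, and the list was drawn up with earlier results of these data known. All 26 were found and all 26 passed the filter on low counts, among 10555 genes tested. By role they comprise 8 genes of the early mevalonate pathway, 3 of the steps between squalene and lanosterol, 9 of the steps between lanosterol and cholesterol, 4 regulators that act on or with SREBP2, and 2 genes of cholesterol transfer and lipoprotein uptake.

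The counts come from livers of 6 male C57BL/6 mice, in which polysomes were parted on sucrose gradients and each liver gave a heavy and a light pool, so 12 libraries in all. Heavy polysomes carry more ribosomes per mRNA than light ones, and the ratio of the pools compares how an mRNA is spread between them. The groups were wild-type mice on a ketogenic diet (2 animals, keto 1 and keto 2), a chow-fed mouse homozygous for eIF4E S209A (1 animal, S209A), and wild-type mice on chow (3 animals, chow 1, chow 2 and chow 3). The ketogenic diet, which is rich in fat and poor in carbohydrate, was given for 24 h, and the fed mice had food at all times. eIF4E is the protein that binds the mRNA cap, and the S209A change takes away a serine that is phosphorylated in the wild type. The labels do not give the age of the mice. Animals are the replicates, and a library of gene counts cannot check a change of 1 amino acid.

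SREBP2, the product of Srebf2, is made as a membrane protein of the endoplasmic reticulum, where SCAP escorts it. When sterols are plentiful, the INSIG proteins hold SCAP and SREBP2 back. When sterols are scarce, the complex moves to the Golgi, SREBP2 is cut free, and its soluble part enters the nucleus and binds sterol regulatory elements, usually beside sites of the factor NF-Y. The liver is a main site of cholesterol synthesis, and insulin and feeding are known to raise the expression of this pathway there.

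The RefSeq promoter table, of build GRCm38.p6, held 22 of the 26 genes with 28 start sites, and Fdps, Fdft1, Sqle and Stard4 were not matched. In the 250 bases before each start, on both strands, TCACNCCA, an SRE-like core, was present in 3 of 22 member genes (13.6%), against 3.93% of the 8245 tested genes with an entry and 4.20% of all genes in the table. Those 3 genes were Hmgcs1, Msmo1 and Srebf2. CCAAT, the core of the NF-Y site, was present in 20 of 22 member genes (90.9%), all but Acat2 and Scap, against 40.2% of the tested genes and 37.5% of all genes. These matches describe letters in a window and say nothing of binding. Stretches of 120 bases are shown for the 3 genes with the SRE-like core and for Insig2, Mvd and Mylip, which recur in the comparisons. They read 5′ to 3′ along the gene's strand, and capitals mark the SRE-like core and CCAAT. Where CCAAT lies on the other strand, the capitals read ATTGG.
Hmgcs1 (chr13:119690164-119690283, plus strand): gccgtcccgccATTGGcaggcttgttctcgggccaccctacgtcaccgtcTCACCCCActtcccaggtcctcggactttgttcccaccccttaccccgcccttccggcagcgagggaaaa
Msmo1 (chr8:64733686-64733805, minus strand): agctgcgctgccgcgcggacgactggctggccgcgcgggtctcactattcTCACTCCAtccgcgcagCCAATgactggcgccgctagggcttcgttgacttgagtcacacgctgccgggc
Srebf2 (chr15:82147057-82147176, plus strand): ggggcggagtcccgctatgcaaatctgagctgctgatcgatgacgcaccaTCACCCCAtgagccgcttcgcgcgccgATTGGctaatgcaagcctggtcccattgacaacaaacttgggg
Mvd (chr8:122443423-122443542, minus strand): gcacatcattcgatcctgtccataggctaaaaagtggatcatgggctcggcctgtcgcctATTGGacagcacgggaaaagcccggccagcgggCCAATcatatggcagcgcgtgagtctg
Insig2 (chr1:121332590-121332709, minus strand): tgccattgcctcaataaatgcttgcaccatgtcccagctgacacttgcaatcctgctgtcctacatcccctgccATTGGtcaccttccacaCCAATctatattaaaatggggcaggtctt
Mylip (chr13:45389622-45389741, plus strand): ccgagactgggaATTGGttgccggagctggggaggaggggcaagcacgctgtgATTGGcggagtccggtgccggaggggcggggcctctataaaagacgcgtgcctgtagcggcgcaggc
The SRE-like core started 137 bases before the start of Hmgcs1, 177 before that of Msmo1 and 162 before that of Srebf2, and a CCAAT core lay in each of these 3 stretches. The Insig2 stretch belongs to the farthest upstream of its 3 promoter entries, and gene counts cannot tell transcripts of different starts apart. The annotated Insig2 gene reaches base 121332662, so part of this stretch, with both marked CCAAT cores, lies within the gene.

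Depth limits what these genes can show. Total counts ran from 3341046 (S209A light) to 13263355 (keto 1 heavy), but counts of nuclear protein-coding genes ran only from 356666 (keto 2 light) to 1777315 (chow 3 heavy), and the 26 members together had between 396 counts (keto 2 light) and 2951 (chow 3 heavy). Nuclear protein-coding genes held 5.596% and 6.014% of total counts in keto heavy, 29.6% in S209A heavy, and 15.9%, 22.2% and 29.7% in chow heavy. In the light pool that share ran from 4.09% (keto 2) to 39.3% (chow 3), with 6.61% in keto 1 and 6.53% in chow 1. The diets thus did not overlap in this share in the heavy pool, but did in the light pool. Its part in the members' values was not tested. Ggps1 had at most 26 counts in any library. All 8 hepatocyte markers had counts in every library, while 0 of 5 neutrophil markers passed the filter. The heavy libraries of the keto animals stood apart in nuclear RNA, a list of 10 noncoding RNAs, whose summed level was 13091 and 11061 CPM in keto, 1790 CPM in S209A, and 1516, 2305 and 2669 CPM in chow. CPM is the count relative to the TMM-scaled library size, a scaling set by the bulk of the genes. In bulk liver, fewer cells of a type and less RNA per cell cannot be told apart.

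As a share of nuclear protein-coding counts, the members were most abundant in chow 1 and least abundant in the light pool of S209A. In the heavy pool the share was 0.2095% and 0.221% in keto 1 and keto 2, 0.158% in S209A, and 0.414%, 0.121% and 0.166% in chow 1, 2 and 3. In the light pool it was 0.162% and 0.111% in keto 1 and keto 2, 0.0692% in S209A, and 0.315%, 0.144% and 0.160% in chow 1, 2 and 3. Both heavy keto shares thus lay inside the chow range, and the light share of keto 2 lay below it. The Wilson 95% interval was 0.399 to 0.431% for the heavy library of chow 1 and 0.0648 to 0.0740% for the light library of S209A. These intervals cover counting error only.

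**Figure D1:**
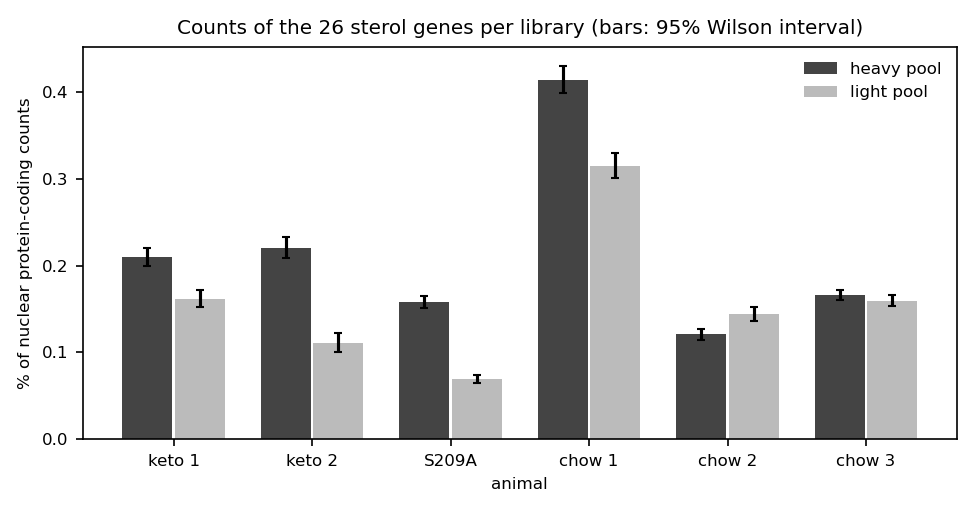
Share of the 26 sterol genes among nuclear protein-coding counts, in percent, for the heavy (dark) and light (grey) pool of each animal, with 95% Wilson intervals of counting error. Chow 1 has the highest bar in both pools, at 0.414% and 0.315%, and the light pool of S209A has the lowest, at 0.0692%.

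Chow 1 stood apart from the other animals across the pathway, not in a single gene. Of the 6 animals it had the highest heavy level in 19 of 26 members, whereas it was highest in 20.05% of all tested genes. It was highest in the light pool in 14 of 26 members, against 20.5% of all tested genes. Relative to the mean of the chow animals, the median member in the heavy pool stood at log2 1.04 in chow 1, -0.46 in chow 2 and -0.51 in chow 3. Among the groups of members, the early mevalonate genes had the widest such gap in the heavy pool, with medians of 1.24 in chow 1, -0.73 in chow 2 and -0.62 in chow 3. The members' median in each tested comparison below that uses chow animals is therefore also given without chow 1. So are the counts of members for which an S209A pool lay above or below the chow range by any amount. Other values below include chow 1 unless said.

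The levels of single members show the same animal. Hmgcs1, the cytosolic synthase that commits acetyl units to the pathway, had 40.7 and 25.7 CPM in keto heavy, 35.9 CPM in S209A heavy, and 140 CPM, 24.5 and 37.5 CPM in chow heavy. In the light pool Hmgcs1 had 23.1 and 14.1 CPM in keto, 7.84 CPM in S209A, and 53.6, 16.2 and 17.1 CPM in chow. Chow 1 was the highest of the 6 animals in both pools, the groups overlapped, and S209A was the lowest of the light libraries.

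Fdps, the farnesyl pyrophosphate synthase at the branch towards sterols and prenyl groups, varied more. It had 8.18 and 1.55 CPM in keto heavy, 16.4 CPM in S209A heavy, and 37.2, 5.22 and 19.2 CPM in chow heavy. Its light levels were 3.81 CPM and 0 CPM in keto, 1.29 CPM in S209A, and 14.6, 2.30 and 19.6 CPM in chow. Chow 2 lay between the keto animals, so the groups overlapped in both pools, and keto 2 was the lowest of all in each.

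Sqle, the squalene epoxidase that puts oxygen into the sterol precursor, had 13.7 and 5.79 CPM in keto heavy, 8.02 CPM in S209A heavy, and 19.9, 10.3 and 7.51 CPM in chow heavy. Light Sqle stood at 5.15 CPM and 0 CPM in keto, 0.514 CPM (4 counts) in S209A, and 12.5, 5.03 and 3.82 CPM in chow. Keto 2 and S209A thus had the lowest light levels, whereas the heavy level of S209A lay within the chow range.

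Srebf2, the gene of SREBP2 itself, had 21.2 and 16.4 CPM in keto heavy, 12.03 CPM in S209A heavy, and 25.1, 14.2 and 10.6 CPM in chow heavy. For light Srebf2 the values were 8.39 and 1.06 CPM in keto, 6.17 CPM in S209A, and 18.6, 14.4 and 13.2 CPM in chow. The heavy levels overlapped, and in the light pool all 3 chow animals lay above the other 3 animals. The value of keto 2 light rests on 3 counts.

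The INSIG genes had different patterns over the animals. Insig1, a SREBP2 target that holds SCAP in the endoplasmic reticulum, had 19.97 and 18.3 CPM in keto heavy, 11.5 CPM in S209A heavy, and 63.3, 8.99 and 11.7 CPM in chow heavy. The light libraries gave Insig1 18.3 and 9.19 CPM in keto, 8.48 CPM in S209A, and 36.01, 18.1 and 13.3 CPM in chow. Insig1 thus followed the pattern of the enzymes, with chow 1 far above the rest.

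Insig2, the other SCAP anchor, has a liver transcript known in mouse to be repressed by insulin. Insig2 had 9.91 and 33.4 CPM in keto heavy, 19.3 CPM in S209A heavy, and 0.993 (4 counts), 11.2 and 3.94 CPM in chow heavy. Light levels of Insig2 were 8.20 and 24.7 CPM in keto, 15.7 CPM in S209A, and 5.04, 9.92 and 2.49 CPM in chow. Chow 1, the highest animal for Insig1, was the lowest for Insig2 in the heavy pool. Keto 2 was the highest for Insig2 in both pools, and keto 1 lay within the chow range.

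The genes of transfer and uptake differed from the enzymes too. Stard4, a soluble carrier that moves cholesterol between membranes, had 11.01 and 17.0 CPM in keto heavy, 4.63 CPM in S209A heavy, and 15.1, 6.96 and 7.73 CPM in chow heavy. For light Stard4 the values were 16.2 and 10.6 CPM in keto, 2.31 CPM in S209A, and 16.4, 9.20 and 9.59 CPM in chow, so S209A was the lowest animal in both pools.

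Mylip, a ubiquitin ligase known to be induced by LXR when sterols are plentiful and to direct lipoprotein receptors to degradation, had 8.96 and 9.27 CPM in keto heavy, 6.69 CPM in S209A heavy, and 1.24, 1.45 and 3.79 CPM in chow heavy. Light Mylip stood at 2.10 and 12.02 CPM in keto, 3.60 CPM in S209A, and 7.65, 4.17 and 4.21 CPM in chow. Its heavy levels did not overlap between keto and chow, whereas its light levels did.

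**Figure D2:**
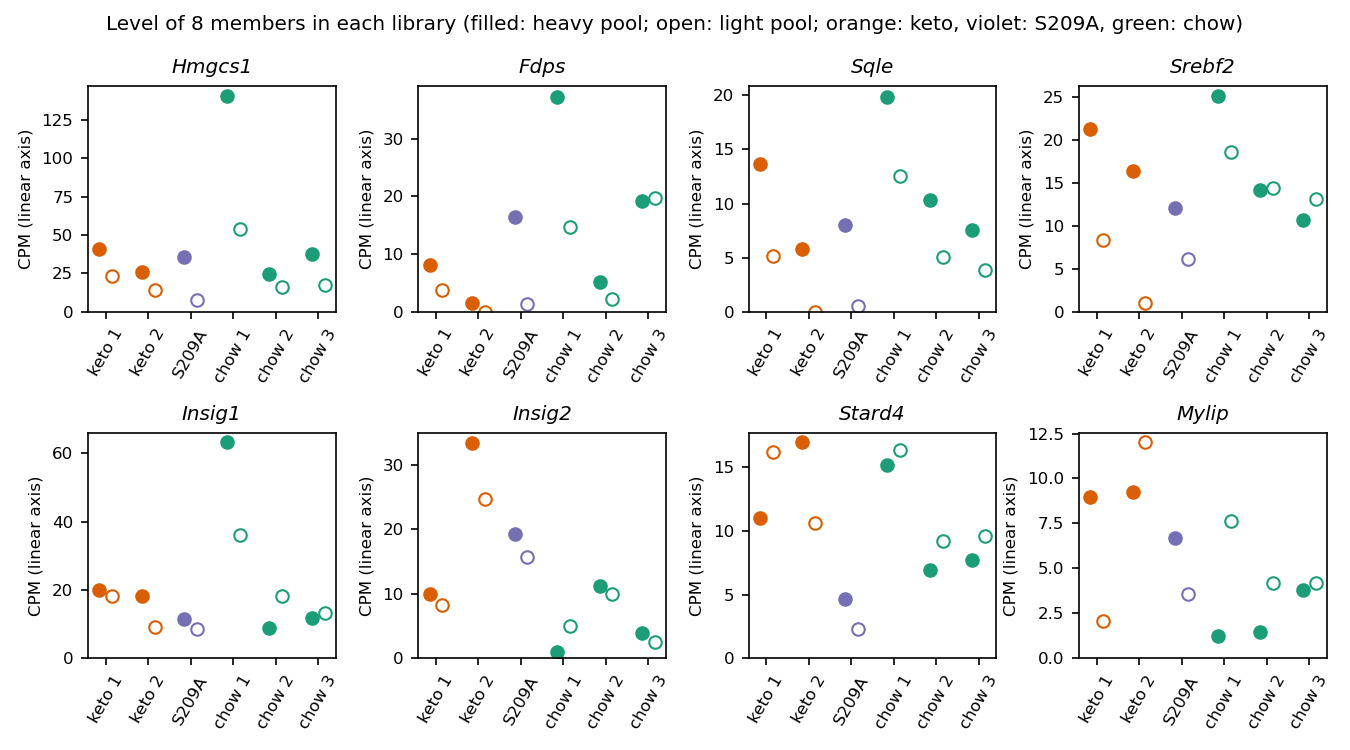
Levels of 8 members in CPM (linear axes, each from 0) in the heavy pool (filled) and light pool (open) of each animal, with keto in orange, S209A in violet and chow in green. Chow 1 is far above the rest for Hmgcs1 and Insig1, keto 2 is highest for Insig2, and both keto animals are above chow for Mylip in the heavy pool.

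The first comparison asked which pool of the gradient held more of these mRNAs in chow-fed livers. The enzymes lay on the heavy side: 16 of the 20 had a positive log2 heavy over light value with a median of 0.67, while 1 of 4 regulators and 0 of 2 genes of transfer and uptake had a positive value. Over all 26 members 17 were positive, against 45.3% of the 10555 genes tested, and their median was 0.43, against -0.09 over all genes. No member passed the threshold of an edgeR adjusted p of 0.05 (0 of 26), which 0.227% of all genes did. At an unadjusted edgeR p under 0.05, 4 members were higher in heavy, against 3.94% of all genes, and 1 was lower, against 3.02%.

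The 4 on the heavy side were an early synthase and decarboxylase and 2 late sterol enzymes. Hmgcs1 had a log2 heavy over light of 1.04 ± 0.37 in chow livers (SE, n = 3 animals, edgeR adjusted p = 0.312), and its values were 1.38, 0.59 and 1.12 in chow 1, 2 and 3. DESeq2 put Hmgcs1 past the threshold at 1.07, and edgeR did not. Mvd, the mevalonate pyrophosphate decarboxylase, had 1.74 ± 0.69 (edgeR adjusted p = 0.420), with 1.03, 1.65 and 2.09 in the 3 animals. Dhcr7, the reductase of the last step, had 1.29 ± 0.56 (edgeR adjusted p = 0.544), with 1.44, 1.29 and 0.94. The values of these 3 genes were positive in each chow animal. Msmo1, a methylsterol oxidase, had 0.97 ± 0.49 (edgeR adjusted p = 0.699), with 1.71, 1.35 and -0.20. Mylip, on the light side, had -1.30 ± 0.62 (edgeR adjusted p = 0.634), and it was negative in each chow animal.

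The heavy lean of the chow livers was largest in chow 1. The median member had a log2 heavy over light of 1.02 in chow 1, with 19 of 26 positive, of 0.18 in chow 2, with 14 positive, and of -0.14 in chow 3, with 10 positive. Over all genes the medians of these animals were -0.06, -0.08 and 0.00, and 46.2%, 45.9% and 48.6% of genes were positive. Without chow 1 the members' fitted median was 0.09, with 14 of 26 positive. All 8 hepatocyte markers also had a positive fitted heavy over light value in chow livers, with a median of 0.66. All 8 measured nuclear RNAs had a negative one, with a median of -1.51. Summed nuclear RNA was 1516 CPM in heavy and 7354 CPM in light in chow 1, and 2305 and 4992 CPM in chow 2. Chow 3 went the other way, with 2669 CPM in heavy and 1734 CPM in light. The part of either list in the members' values was not tested.

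In livers on the ketogenic diet 20 of 26 members had a positive log2 heavy over light value, against 51.7% of all genes, with a median of 0.41, against 0.03 over all genes. Here all 4 regulators and both genes of transfer and uptake were positive, as were 14 of the 20 enzymes. No member passed the threshold in edgeR (0 of 26, against 0.18% of all genes). At an unadjusted edgeR p under 0.05, 4 members were higher in heavy, against 2.31% of all genes, and 0 were lower, against 1.96%.

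Srebf2 came nearest to the threshold, with a log2 heavy over light of 2.26 ± 0.59 in keto livers (SE, n = 2 animals, edgeR adjusted p = 0.0642). It was 1.31 in keto 1 and 3.64 in keto 2, where it rests on 3 light counts. Sqle had 2.31 ± 0.73 (edgeR adjusted p = 0.387), with 1.36 in keto 1 and at least a 5.46-fold excess in heavy in keto 2, whose 0 light counts were set to a floor of 3 counts in that library. Msmo1 had 1.99 ± 0.66 (edgeR adjusted p = 0.510), with 1.10 and 3.31 in the 2 animals and 2 light counts in keto 2. Fdps had 1.56 ± 0.72 (edgeR adjusted p = 1), with 1.05 in keto 1 and at least a 1.46-fold excess in heavy in keto 2. Hsd17b7, a sterol ketone reductase, was next with 1.14 ± 0.62 (edgeR adjusted p = 1) and did not pass at the unadjusted threshold either. It was 0.09 in keto 1 and 2.32 in keto 2, so most of its size was in keto 2.

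Most of this lean was in keto 2, whose light library had the fewest nuclear protein-coding counts. Its median member had a log2 heavy over light of 0.87 with 20 of 26 positive, or 0.83 with the members at 0 counts set to their bounds, while keto 1 had a median of 0.05 with 14 positive. Over all genes 50.8% were positive in keto 2 and 48.8% in keto 1. Without keto 2 the members' fitted median was 0.05, with 14 of 26 positive, and without keto 1 it was 0.92. In the light library of keto 2, 4 members had 0 counts (Fdps, Mvk, Sqle and Nsdhl), and it was the lowest of the 6 light libraries in 13 of 26 members, against 30.5% of all genes. In keto livers 0 of 4 measured erythroid markers had a positive heavy over light value, with a median of -1.92. The nuclear RNAs were positive in 5 of 8, with a median of 0.51, and the hepatocyte markers in 3 of 8, with a median of -0.13. Their part in the members' values was not tested.

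The diets were then compared for the ratio itself, as a contrast of the same model. The heavy over light value was larger in keto than in chow livers for 16 of 26 members, against 54.3% of all genes, with a median difference of 0.37, against 0.15 over all genes. All 4 regulators and both genes of transfer and uptake had positive differences, and the 20 enzymes were split 10 and 10, with a median of 0.09. No member passed in edgeR (0 of 26, against 0.189% of all genes). At an unadjusted edgeR p under 0.05, 2 members had a larger ratio in keto livers, against 2.93% of all genes, and 0 a smaller one, against 3.11%. Srebf2 had a difference of 2.23 ± 0.72 (n = 2 keto and 3 chow animals, edgeR adjusted p = 0.351), from 1.31 and 3.64 in the keto animals against 0.42, -0.02 and -0.30 in the chow animals. Mylip had 2.09 ± 0.97 (edgeR adjusted p = 0.791), from 1.96 and -0.36 in the keto animals against -2.39, -1.37 and -0.14 in the chow animals. Both keto animals lay above all 3 chow animals in 2 members, Sqle and Srebf2, against 13.1% of all genes, and below all 3 in 2, Mvd and Lbr, against 10.1%.

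The next in order did not pass in edgeR at an unadjusted p either. Sqle had a difference of 1.43 ± 0.88, which was 0.52 without keto 2, the animal with 0 light counts, and 7.59 without keto 1, a fitted value that rests on those 0 counts. Mvd had -1.81 ± 1.17, from -0.23 and 0.11 in the keto animals against 1.03, 1.65 and 2.09 in the chow animals. Pmvk, the phosphomevalonate kinase, had -1.52 ± 0.997, from 0.39 and -2.02 in the keto animals against 1.10, 1.79 and -0.40 in the chow animals. It was -0.43 without keto 2 and -3.27 without keto 1. The members' median difference was 0.56 without chow 1, 0.06 without chow 3, 0.93 without keto 1 and 0.14 without keto 2. In the same contrast 7 of 8 measured nuclear RNAs were positive, with a median of 1.63, while 0 of 8 hepatocyte markers and 0 of 4 measured erythroid markers were, with medians of -0.65 and -1.34. The part of these lists in the members' differences was not tested.

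Over the 6 animals, S209A included, 3 of 26 members had a positive heavy over light value in each, against 1.5% of all genes. They were Hmgcs1, Sqle and Hsd17b7, and the value of Hsd17b7 in chow 3 was 0.00 after rounding. No member was negative in each of the 6 (0 of 26, against 1.49% of all genes). Hmgcs1 ran from 0.59 in chow 2 to 2.16 in S209A.

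**Figure D3:**
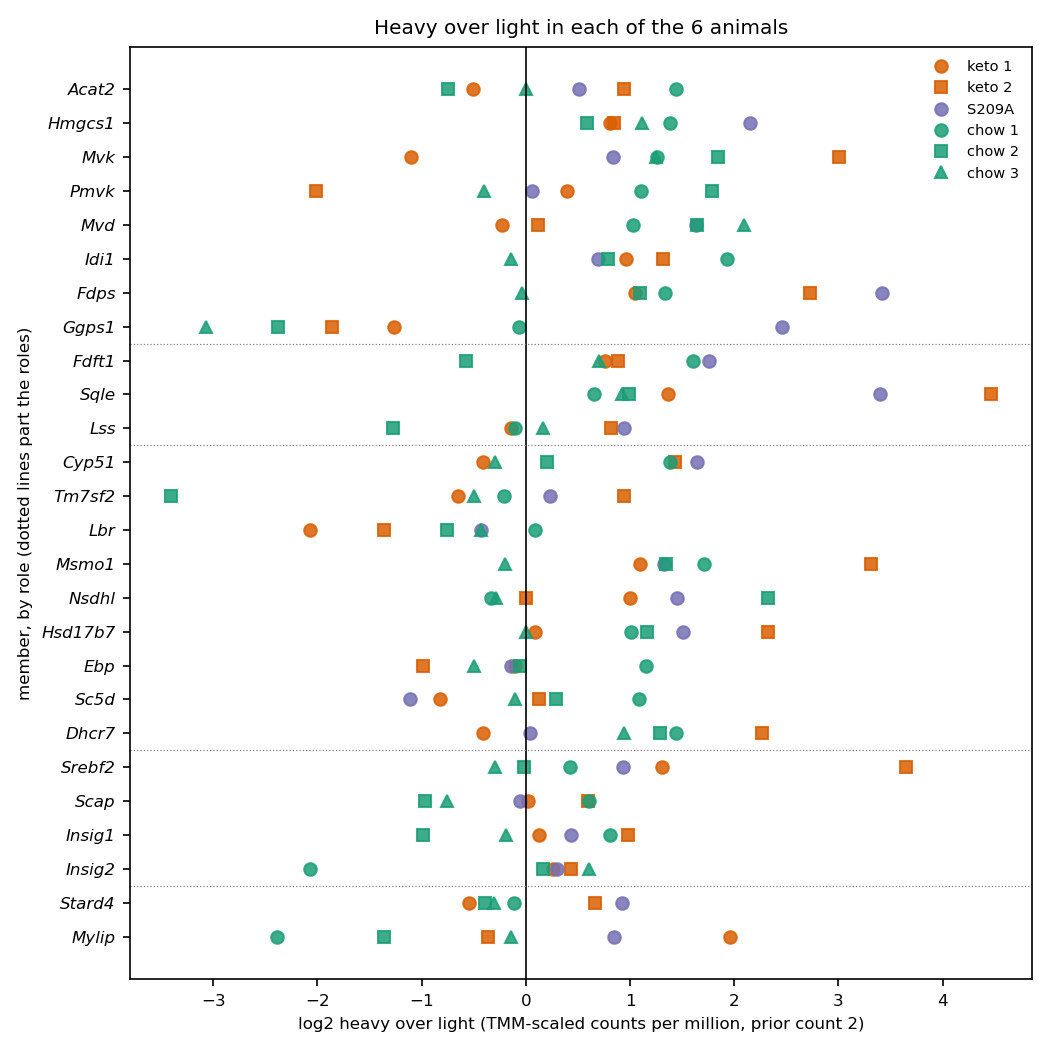
Log2 heavy over light for each of the 26 members in the 6 animals (keto orange, S209A violet, chow green), computed from TMM-scaled counts with a prior count of 2, with the members in order of role. Hmgcs1, Sqle and Hsd17b7 are the 3 members with no animal below 0, and keto 2 reaches the highest values for Srebf2 and Msmo1. The points of keto 2 for Fdps, Mvk, Sqle and Nsdhl, and those of S209A, chow 2 and chow 3 for Ggps1, rest on 0 counts in at least 1 pool and so on the prior count.

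The second comparison asked how the members' levels in each pool differed between the ketogenic diet and chow. In the heavy pool 7 of 26 members had a positive log2 keto over chow value, against 48.4% of all genes, and the median was -0.72, against -0.04 over all genes. All 8 early mevalonate genes were negative, with a median of -1.47, as were all 3 genes between squalene and lanosterol, with a median of -0.58, and 7 of the 9 later enzymes. The regulators were positive in 3 of 4 and the genes of transfer and uptake in 2 of 2. In edgeR 0 of 26 members passed the threshold, as did 0 of the 10552 genes tested (0%). At an unadjusted edgeR p under 0.05, 2 members were higher in keto, against 3.01% of all genes, and 5 were lower, against 5.16%.

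Mylip and Insig2 were the 2 on the higher side. Mylip averaged 9.12 ± 0.22 CPM in keto heavy (SD, n = 2) and 2.16 ± 1.42 CPM in chow heavy (SD, n = 3), a log2 difference of 2.01 ± 0.69 (SE, edgeR adjusted p = 0.512). Insig2 averaged 21.7 ± 16.6 CPM in keto heavy and 5.36 ± 5.23 CPM in chow heavy, a log2 difference of 1.99 ± 0.78 (SE, edgeR adjusted p = 0.536). Mylip was the 1 member whose keto animals both lay above all 3 chow animals in the heavy pool, against 14.5% of all genes.

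The 5 on the lower side were 4 enzymes of the early pathway and Sc5d, a late desaturase. Mvd averaged 1.71 ± 0.86 CPM in keto heavy and 7.67 ± 5.62 CPM in chow heavy, a log2 difference of -2.15 ± 0.82 (edgeR adjusted p = 0.530). Its keto libraries held 7 and 12 counts. Sc5d averaged 6.39 ± 0.80 CPM in keto heavy and 25.5 ± 27.8 CPM in chow heavy, a log2 difference of -1.98 ± 0.81 (edgeR adjusted p = 0.554). Without its 57.6 CPM in chow 1, the chow values of Sc5d were 11.5 and 7.58 CPM, against 5.82 and 6.95 CPM in keto. Fdps had a log2 difference of -2.05 ± 0.85 (edgeR adjusted p = 0.563), and Pmvk and the mevalonate kinase Mvk had -2.15 ± 0.91 and -1.92 ± 0.83, neither past the edgeR threshold. Both keto animals lay below all 3 chow animals in 4 of 26 members, against 13.4% of all genes, and these were Mvk, Mvd, Sc5d and Dhcr7. Dhcr7 was all but level between the nearest animals, at 4.443 CPM in keto 2 and 4.447 CPM in chow 3.

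The members' median in the heavy pool rested on chow 1. Without it the median keto over chow value in the heavy pool was 0.10, with 15 of 26 positive, so the direction turned. Without chow 1 the value was -1.38 for Mvd, -1.32 for Fdps and -0.57 for Sc5d. The members at an unadjusted edgeR p under 0.05 numbered 1 without chow 1, 6 without chow 2 and 10 without chow 3. Without chow 1, 281 of all 10320 genes were higher at that p and 488 lower. With limma-voom on all 6 heavy libraries the median was -0.26, with 10 of 26 positive and 2 members at an unadjusted p under 0.05. Chow 1, chow 2 and both keto animals share the wording of their sample titles, and chow 3 and S209A share another. With that wording as a batch term, which sets the keto animals against chow 1 and chow 2, the median was -0.91, and Sc5d passed the threshold at -2.43 (edgeR adjusted p = 0.0437). In that fit Mylip had 2.74, Mvd -2.45, Fdps -2.09 and Insig2 1.78, and none of these 4 passed in edgeR. The file headers name an aligner for the chow libraries and S209A and none for the keto libraries, so diet and read processing cannot be told apart. In the same comparison 0 of 8 hepatocyte markers were positive, with a median of -1.04, and their summed level was 4949 and 5600 CPM in keto heavy and 8041 to 12557 CPM in chow heavy. All 8 measured nuclear RNAs were positive, with a median of 2.60. The part of either in the members' values was not tested.

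In the light pool 5 of 26 members had a positive log2 keto over chow value, against 44.1% of all genes, with a median of -0.53, against -0.13 over all genes. Again all 8 early mevalonate genes and all 3 genes between squalene and lanosterol were negative, with medians of -0.69 and -1.23. In edgeR 0 of 26 members passed, as did 0 of 10551 genes (0%). At an unadjusted edgeR p under 0.05, 1 member was higher in keto, against 2.33% of all genes, and 4 were lower, against 3.73%.

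The 5 had the same edgeR adjusted p of 0.796. Insig2 was the one on the higher side, with 16.5 ± 11.7 CPM in keto light and 5.82 ± 3.77 CPM in chow light and a log2 difference of 1.48 ± 0.65. Srebf2 averaged 4.72 ± 5.18 CPM in keto light and 15.4 ± 2.86 CPM in chow light, a difference of -1.62 ± 0.70. Fdps had -2.51 ± 1.08, the squalene synthase Fdft1 -1.23 ± 0.54, and Nsdhl, a sterol dehydrogenase, -2.43 ± 1.09. Both keto animals lay below all 3 chow animals in 5 members, against 14.6% of all genes, namely Fdft1, Lss, Tm7sf2, Nsdhl and Srebf2. They lay above all 3 in 0 members, against 11.2%.

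Here too 1 animal of each diet set much of the size. Without chow 1 the members' median in the light pool was -0.10, with 11 of 26 positive, without keto 1 it was -1.21, and without keto 2 it was -0.28. The members at an unadjusted edgeR p under 0.05 numbered 0 without chow 1, and 3 without chow 2 and without chow 3. Without chow 1, 245 of all 10319 genes were higher at that p and 371 lower. Hepatocyte markers had a median of -0.28 in this comparison. The summed level of the 5 erythroid markers found in the tables, of 6 listed, was 36.6 and 93.7 CPM in keto light and 6.86 to 16.4 CPM in chow light, and the 4 that were measured were all positive, with a median of 2.76. Their part in the members' values was not tested.

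**Figure D4:**
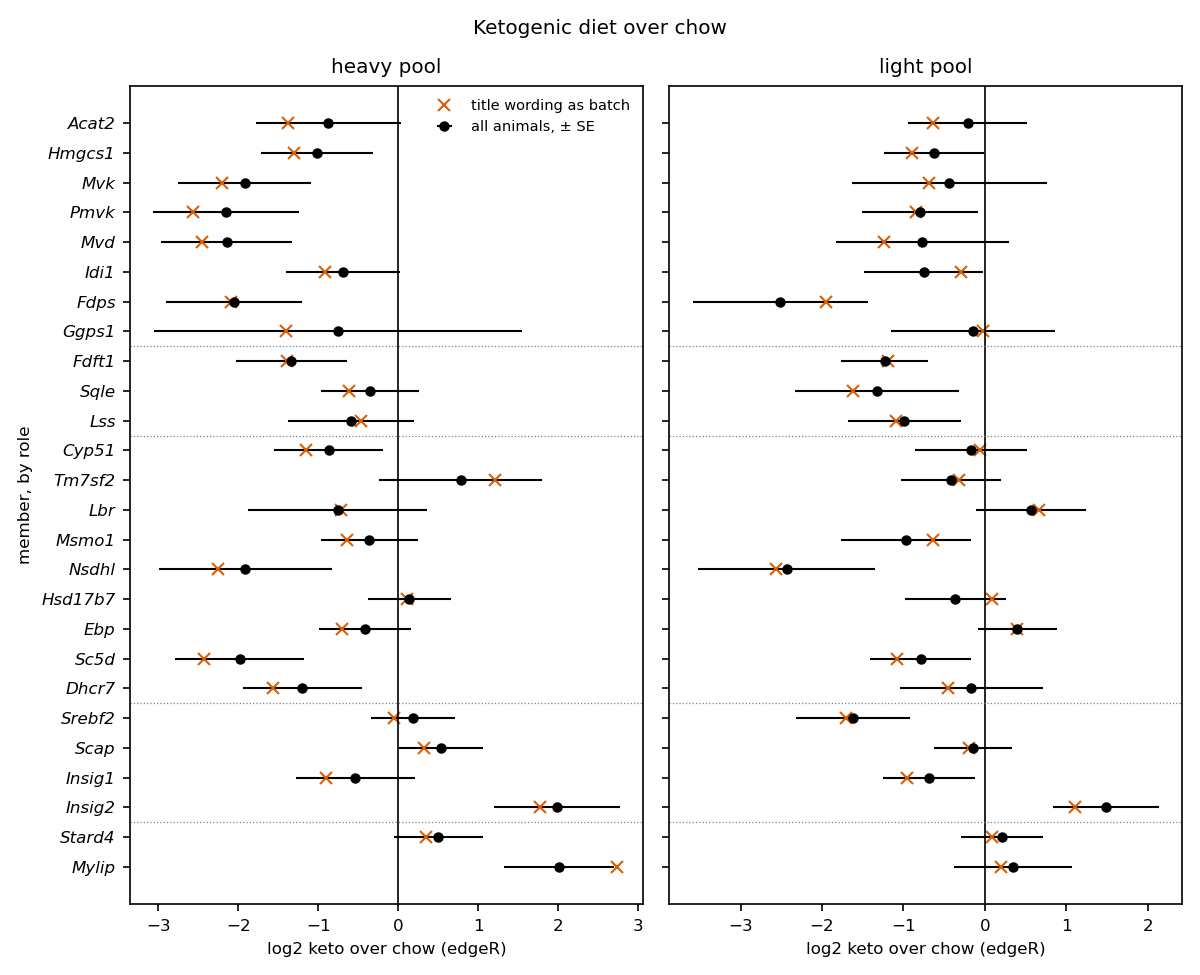
Log2 keto over chow of the 26 members in the heavy pool (left) and light pool (right), from edgeR, with standard errors (black) and with the wording of the sample titles as a batch term (orange crosses). Most enzymes lie left of 0 in both pools, and Insig2 in both and Mylip in the heavy pool lie farthest right.

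The third comparison set the single S209A animal beside the chow animals. With 1 animal there is no replicate check and no test, so each value was placed against the range of the 3 chow animals. In the heavy pool S209A lay above that range for 4 of 26 members, against 22.4% of all genes, namely Tm7sf2, Hsd17b7, Insig2 and Mylip. It lay below for 10 members, against 17.1% of all genes, among them Acat2, Idi1, Cyp51 and Stard4. Without chow 1 that count was 10, against 28% of all genes. It was 16 without chow 2, against 26.8%, and 14 without chow 3, against 27.3%. The count above was 6 without chow 1, against 31.2% of all genes. Without chow 2 and without chow 3 it was 4, against 30.1% and 34.8%. Counting only values at least 2-fold beyond the nearest chow animal, 0 members were above and 0 below in the heavy pool, against 2.61% and 2.86% of all genes.

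The light pool of S209A was low in most members. It lay below the chow range for 19 of 26 members, against 30.7% of all genes, and above it for 1, Insig2, against 27.3%. By at least 2-fold it lay below for 9 members, against 10.2% of all genes, and above for 0, against 3.76%. The 9 were Acat2, Hmgcs1, Ggps1, Fdft1, Sqle, Lss, Cyp51, Srebf2 and Stard4. Cyp51, the lanosterol demethylase, had 2.31 CPM in S209A light and 13.6, 6.90 and 12.5 CPM in chow light. Lss, the lanosterol synthase, had 1.80 CPM in S209A light and 8.00, 4.60 and 4.91 CPM in chow light. Without chow 1 it lay below both other chow animals for 20 members, against 38% of all genes, without chow 2 for 20, against 36.5%, and without chow 3 for 19, against 40.1%. It lay above both for 4 members without chow 1, against 33.5% of all genes. That count was 1 without chow 2, against 33.4%, and 2 without chow 3, against 34.1%. In the same library the 8 hepatocyte markers summed to 11380 CPM, against 4116 to 7989 CPM in chow light, the 9 Kupffer cell markers to 88.4 CPM, against 29.7 to 57.9 CPM, and the 8 stellate cell markers to 76.7 CPM, against 39.5 to 66.0 CPM. Nuclear RNA summed to 1099 CPM in S209A light and 1734 to 7354 CPM in chow light. The part of these lists in the members' values was not tested.

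The heavy over light value of S209A was high for many members. Its median was 0.88, with 22 of 26 positive, against 0.00 and 49.8% positive over all genes of that animal. This median lay within the chow range, as the median member was 1.02, 0.18 and -0.14 in chow 1, 2 and 3. In keto 2 the median member was 0.87. The heavy over light value of S209A exceeded all 3 chow animals for 12 members, against 30.5% of all genes. It was below all 3 for 3 members, Mvk, Sc5d and Dhcr7, against 24.6%. By at least 2-fold it was above for 4, against 10.9% of all genes, namely Fdps, Ggps1, Sqle and Stard4, and below for 1, Sc5d, against 5.51%. Its sign was opposite to that of all 3 chow animals for 4 members, against 17% of all genes. Fdps had 3.41 in S209A (159 heavy and 10 light counts) and 1.33, 1.09 and -0.03 in chow 1, 2 and 3. Sqle had 3.39 in S209A (78 heavy and 4 light counts) and 0.65, 0.99 and 0.93 in the chow animals. Hmgcs1 had 2.16 in S209A (349 heavy and 61 light counts) and 1.38, 0.59 and 1.12 in the chow animals. The S209A pools share their title wording and aligner with chow 3, whose median member was -0.14.

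**Figure D5:**
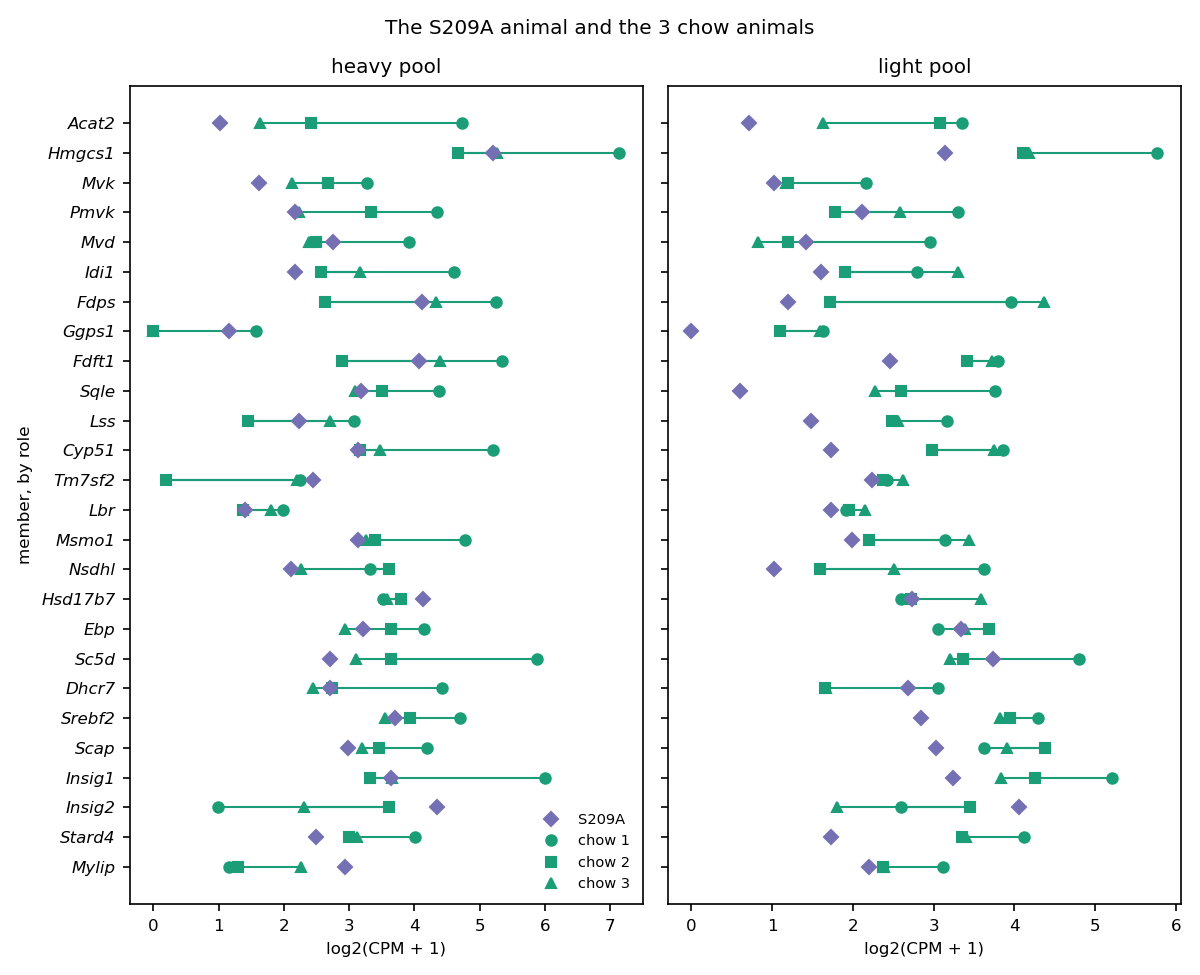
Log2(CPM + 1) of the 26 members in the S209A animal (violet diamonds) and the 3 chow animals (green, joined by a line over their range) in the heavy pool (left) and light pool (right). In the light pool 19 diamonds lie left of the green range, against 10 in the heavy pool, and Insig2 lies right of it in both.

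In the lists of other sterol genes, 0 genes passed the edgeR threshold in any of the 5 tested comparisons. Of 14 genes of SREBP processing and of sterol-dependent degradation 13 were measured, and their medians were -0.09 for keto over chow in the heavy pool and 0.26 in the light pool, with 6 and 8 positive. In heavy 2 were lower at an unadjusted edgeR p under 0.05, against 5.16% of all genes. In light 1 was higher at that p, against 2.33%, and 1 lower, against 3.73%. Erlin2, a membrane factor of that degradation, had -2.84 ± 1.09 in the heavy pool (edgeR adjusted p = 0.530) and 1.45 ± 0.60 in the light pool (edgeR adjusted p = 0.796), so its sign differed between the pools. Vcp, the ATPase that extracts ubiquitinated proteins from the membrane, had -1.40 ± 0.54 in heavy (edgeR adjusted p = 0.531).

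Of 20 genes of sterol transport, esterification and efflux all 20 were measured, with medians of -0.06 for keto over chow in the heavy pool and -0.39 in the light pool. Of these, 2 were lower in heavy at an unadjusted edgeR p under 0.05, against 5.16% of all genes. In light 0 differed, where 2.33% of all genes were higher and 3.73% lower. The 2 in heavy were lipid carriers, Fabp1 with -2.16 ± 0.59 and Scp2 with -1.51 ± 0.62, at edgeR adjusted p of 0.476 and 0.553. Of 15 genes of the nonsterol isoprenoid branches 13 were measured, with medians of -0.14 in heavy and 0.82 in light. In either pool 0 of these differed at an unadjusted edgeR p under 0.05. Over all genes 3.01% were higher and 5.16% lower in heavy, and 2.33% and 3.73% in light.

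Lipogenic genes, many of them driven by the related factor SREBP1c, are a further set of known insulin-responsive genes. Of 15 such genes 14 were measured, and for keto over chow 4 were positive in the heavy pool and 5 in the light pool, with medians of -0.27 and -0.63. At an unadjusted edgeR p under 0.05, 1 was higher in heavy (Elovl6), against 3.01% of all genes, and 2 were lower (Fasn and Acly), against 5.16%. In light 2 were higher at that p (Elovl6 and Elovl5), against 2.33%, and 4 lower (Acly, Acss2, Thrsp and Mlxipl), against 3.73%. Acly, which makes cytosolic acetyl-CoA, had -1.92 ± 0.72 in the heavy pool and -1.69 ± 0.63 in the light pool, with edgeR adjusted p of 0.527 and 0.796. Elovl6, a fatty acid elongase, had 2.63 ± 0.77 and 2.23 ± 0.57, with edgeR adjusted p of 0.490 and 0.796. Thrsp, a lipogenic nuclear protein, was the 1 gene of this list past the threshold in any of the 5 comparisons, with a log2 heavy over light of 2.75 ± 0.66 in keto livers (edgeR adjusted p = 0.0258).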

How the data were processed

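The deposited values are raw read counts per Entrez gene ID, with a table for each library. The submitters' processing notes name Trimmomatic, HISAT2, StringTie and the mm10 build. Per the file headers, chow 1 and chow 2 were aligned with Bowtie2, chow 3 and S209A with HISAT2, and for the keto animals no aligner is named. Versions, the counting tool and its use of strand are not given, so reads of overlapping, antisense and near-identical genes may be misassigned. Per the labels' protocols, gradient fractions 2 to 7 and 8 to 13 were pooled, ERCC RNA was added, and libraries were made from 10 ng with a low-input total RNA kit. Which fractions are the heavy pool is not said, and with 0 ERCC IDs in the tables no spike-in scaling was made. The labels give a time of 0 h beside a diet of 24 h, and the design text speaks of fasted mice where the labels name a ketogenic diet. The diet label was used. No column was left out (0).

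Symbols came from the RefSeq table of GRCm38.p6, which named 25275 IDs, while 1904 stayed unnamed. edgeR 4.0.16 in R 4.3.3 was run with filterByExpr at 10 counts over the 12 libraries, TMM scaling (factors 0.324 to 3.12) and two-sided quasi-likelihood tests, adjusted by Benjamini-Hochberg over all genes at a threshold of 0.05. Pools were compared in a model of all libraries with a term for each animal and a heavy over light term for each condition. Diets were compared in the 6 libraries of a pool. The standard error is the absolute log2 value divided by the root of F. Ratios by animal used a prior count of 2. Alternatives were DESeq2 1.42.0, limma-voom (limma 3.58.1), RLE and protein-coding scaling, other filters, a replicate block or none, the title wording as a batch, and each animal left out. Scripts were tested on simulated data.

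By rule, members past the threshold were named, filled up to 5 by the smallest unadjusted p, and 7 members were given in every animal, to which Mylip was added after its values were seen. The members and all gene lists were chosen with earlier results of these data known. The labels do not say whether replicate numbers pair chow with keto animals, so the replicate block was an alternative only. Deviations of same-numbered animals from their group means correlated across genes at -0.07 and 0.05 in the heavy pool and -0.05 and 0.01 in the light pool. The deviations of 2 keto animals from their mean mirror each other, so these values cannot decide whether the animals were paired. The heavy and light pool of a chow animal correlated at 0.31, 0.30 and 0.46.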

Additional observations from a re-analysis of the deposited data

Results flagged for a closer look

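The heavy over light value of the S209A animal had the opposite sign to that of all 3 chow animals in 4 of 26 members, against 17% of all genes. With 1 S209A animal these differences were not tested. The log2 value of S209A minus the mean of the chow animals was 4.29 for Ggps1, the synthase of geranylgeranyl pyrophosphate, 2.14 for Mylip, 1.60 for Tm7sf2, a sterol reductase, and 1.19 for Stard4. Ggps1 rests on 12 heavy and 0 light counts in S209A, at least 3.20-fold more in heavy at a floor of 3 counts in the light library, and on 8 heavy counts in all in the chow animals. Tm7sf2 had 0.23 in S209A and -0.21, -3.40 and -0.49 in chow 1, 2 and 3, and the value of chow 2 rests on 1 heavy count. Stard4 had 0.92 in S209A and -0.11, -0.39 and -0.30 in chow. Mylip had 0.85 in S209A and -2.39, -1.37 and -0.14 in chow.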

How the results depend on the processing

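The count of members past the threshold was 0 in each comparison under every alternative run, except that DESeq2 called 1 for chow heavy over light (Hmgcs1, 1.07) and the title wording as a batch called 1 for keto over chow in heavy (Sc5d, -2.43). Over all genes, chow heavy over light (24 calls) gave 94 with DESeq2, 11 with no filter, 3 at a mean count of at least 20, 0 with no replicate block, and 5 to 407 with a chow animal left out (407 without chow 3). Keto heavy over light (19) gave 3 with DESeq2, 7 with limma-voom, 0 at a mean count of at least 20, 0 with no replicate block, and 6 to 10 with a keto animal left out. The keto minus chow difference in that ratio (20) gave 10 with DESeq2, 0 at a mean count of at least 20, 0 with no replicate block, and 0 to 214 with an animal left out (214 without chow 3). Keto over chow in heavy (0) gave 98 with DESeq2, 4 with limma-voom, 112 with no filter, 83 with the replicate block, 126 with the title wording, and 0 to 67 with an animal left out (67 without chow 3). There the unadjusted edgeR p was under 0.05 for 318 higher and 544 lower genes, and that of limma-voom for 516 and 404. Keto over chow in light (0) gave 39 with no filter, 5 with the replicate block, and 0 with DESeq2 and limma-voom. There the unadjusted p was under 0.05 for 246 higher and 394 lower genes in edgeR and for 376 and 206 in limma-voom. The members' median in that comparison (-0.53) ran from -1.21 to -0.10 with an animal left out, and in heavy (-0.72) from -1.001 to 0.10, and was -0.26 there with limma-voom. S209A lay below the chow range in heavy for 10 to 16 members with a chow animal left out (16 without chow 2). Apart from the 2 calls given first, the named members kept their direction and side of the threshold in 183 values with another setting and in 100 with an animal left out. Why these counts moved was not tested. Depth limits the members most in keto 2 light, where 16 of 26 had under 10 counts, and 2 keto animals and 1 S209A animal leave the spread of those groups poorly known.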
